A study of Mus musculus with 4 samples.

Results

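CTCF intervals with several summits are stretches of the genome that the peak caller reported as 1 enriched interval with 2 or more local maxima inside it. They were chosen by measured values: an interval on chromosomes 1 to 19, without chromosome 11, was a member when its chromosome, start and end stood on 2 or more rows of a CTCF peak list. There were 3241 members among 33915 CTCF intervals in DelCBS7-10 (9.56%, exact Clopper-Pearson 95% interval 9.25 to 9.87%), 3146 among 31905 in InsCBS5-10 (9.86%, 9.54 to 10.2%) and 2177 among 44362 in wild type (4.91%, 4.71 to 5.11%). These 95% intervals and all others given here cover counting error over regions only, since each group had 1 library and no replicate.

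Mouse gastruloids, which are cultured balls of embryonic stem cells that elongate and pattern themselves like the trunk of an embryo, were collected at 96 h, pooled and crosslinked. CTCF was mapped by ChIPmentation, in which the Tn5 transposase tags immunoprecipitated chromatin on the beads, in 3 genotypes. In DelCBS7-10 gastruloids, read from the genotype notation, 1 HoxB copy was Del and the other carried 3 changes: Del(i9-13), the insertion Ins(CBS5-10) of CTCF binding sites, and the removal Del(CBS7-10). InsCBS5-10 gastruloids had the same alleles without Del(CBS7-10), so both mutants shared the HoxB deletion and Del(i9-13). Wild-type gastruloids carried none of these alleles. RAD21 was analysed in InsCBS5-10. HoxB lies on chromosome 11, so the edited locus was not among the intervals described here. The sources used here do not give whether a mutant line was 1 clone, and differences between genotypes cannot be told apart from differences between single libraries.

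CTCF is a zinc-finger protein that binds an asymmetric DNA motif and halts loop extrusion by cohesin, the ring complex to which RAD21 belongs. Places where several CTCF molecules bind side by side are known at domain boundaries, in the Hox clusters, at the protocadherin genes and at imprinted loci. In the Hox clusters, CTCF sites separate active from silent genes along the body axis.

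Letters could be read in RefSeq promoter windows (GRCm38.p6), which run from 250 bases before to 50 after a gene's start. A member had 2 or more summits inside 1 such window at 12 places in DelCBS7-10, 17 in InsCBS5-10 and 25 in wild type. The windows printed here place pairs of CTCF summits on their sequence: the 1 window with a pair in all 3 lists (Vmn2r29), the 3 windows of protein-coding genes where each summit of a pair had a motif-like match within 50 bases (Dmrt2, Stt3b and Vps37d), the window with the highest second summit among the other protein-coding genes (Tprkb), and the 1 window in a Hox cluster (Hoxa5). Each is the plus strand, 5′ to 3′. Capitals mark matches on either strand to any of 10 letter patterns: GGGGGCGC, AGGGGGCG, AGGGNGCGC, CAGGNGGCG, CAGGGGGC, CAGGNNGCGC, CCAGNNGGCG, AGAGGGCG, CCAGNGGGC and GAGGGCGC. The patterns overlap each other, and they were picked on wild-type single-summit intervals in promoter windows as those most over-represented against windows without a CTCF interval.
Vmn2r29 (chr7:7278240-7278539): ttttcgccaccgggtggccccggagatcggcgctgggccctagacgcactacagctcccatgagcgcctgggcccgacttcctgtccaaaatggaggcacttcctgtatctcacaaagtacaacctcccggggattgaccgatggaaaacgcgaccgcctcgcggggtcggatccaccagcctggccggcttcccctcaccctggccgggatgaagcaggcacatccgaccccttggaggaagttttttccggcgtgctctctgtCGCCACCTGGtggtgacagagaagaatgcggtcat
Dmrt2 (chr19:25672161-25672460): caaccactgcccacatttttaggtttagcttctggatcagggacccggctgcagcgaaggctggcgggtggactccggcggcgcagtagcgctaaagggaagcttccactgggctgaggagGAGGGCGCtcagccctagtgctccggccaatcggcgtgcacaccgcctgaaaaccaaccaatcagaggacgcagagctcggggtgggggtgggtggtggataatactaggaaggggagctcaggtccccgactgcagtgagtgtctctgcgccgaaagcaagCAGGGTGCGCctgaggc
Stt3b (chr9:115310419-115310718): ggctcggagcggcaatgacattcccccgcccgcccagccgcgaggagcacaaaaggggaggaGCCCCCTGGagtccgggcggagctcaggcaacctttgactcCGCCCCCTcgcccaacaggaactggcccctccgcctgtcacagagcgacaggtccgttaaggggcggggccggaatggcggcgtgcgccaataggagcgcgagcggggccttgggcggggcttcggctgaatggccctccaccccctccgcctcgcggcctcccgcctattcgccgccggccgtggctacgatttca
Vps37d (chr5:135078217-135078516): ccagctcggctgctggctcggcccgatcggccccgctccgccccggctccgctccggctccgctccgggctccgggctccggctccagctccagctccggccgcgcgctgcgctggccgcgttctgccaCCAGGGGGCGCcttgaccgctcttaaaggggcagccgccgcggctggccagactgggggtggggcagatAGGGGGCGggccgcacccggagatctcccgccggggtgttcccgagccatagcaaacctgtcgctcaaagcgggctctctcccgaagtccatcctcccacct
Tprkb (chr6:85915721-85916020): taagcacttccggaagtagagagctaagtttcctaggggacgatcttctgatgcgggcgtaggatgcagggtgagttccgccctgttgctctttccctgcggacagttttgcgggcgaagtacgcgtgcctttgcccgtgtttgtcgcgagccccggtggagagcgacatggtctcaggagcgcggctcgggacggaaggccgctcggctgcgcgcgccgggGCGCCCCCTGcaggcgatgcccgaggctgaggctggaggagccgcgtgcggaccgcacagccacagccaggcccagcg
Hoxa5 (chr6:52204538-52204837): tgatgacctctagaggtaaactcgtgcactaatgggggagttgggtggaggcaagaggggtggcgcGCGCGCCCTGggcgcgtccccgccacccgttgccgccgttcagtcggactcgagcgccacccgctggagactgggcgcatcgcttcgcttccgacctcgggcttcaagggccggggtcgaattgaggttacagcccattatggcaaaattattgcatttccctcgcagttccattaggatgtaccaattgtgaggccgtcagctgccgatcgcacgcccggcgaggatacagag

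At Dmrt2, a transcription factor gene of the somite, the summits of DelCBS7-10 lay at bases 137 and 297 of the window, 8 and 4 bases from the separate matches, with near-equal fold enrichments of 3.47 and 3.49. At Vps37d, an endosomal sorting gene, the DelCBS7-10 summits at bases 87 and 225 lay 43 and 19 bases from a match. At Stt3b, a catalytic subunit of the oligosaccharyl transferase, the wild-type summits at bases 33 and 149 lay 30 and 38 bases from a match, with fold enrichments of 4.74 and 4.71. In these 3 windows each summit of a pair had a block of capitals of its own nearest to it.

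At Vmn2r29, a vomeronasal receptor gene, the pair lay at bases 20 and 221 in DelCBS7-10, at bases 20 and 234 in InsCBS5-10 and at bases 45 and 215 in wild type. The right summit lay 45, 32 and 51 bases from the only block of capitals, and the left one at least 221 bases from it, although the left one was the stronger in each list. At Tprkb, a gene for a subunit of a complex that modifies tRNA, the wild-type summits at bases 153 and 260 had fold enrichments of 11.7 and 11.1 and lay 70 and 28 bases from the single block. At Hoxa5 the InsCBS5-10 summits at bases 28 and 179 lay 39 and 103 bases from the match, with fold enrichments of 4.76 and 5.14. Pairs with a match within 50 bases of each summit thus numbered 2 of 12 in DelCBS7-10, 1 of 17 in InsCBS5-10 and 1 of 25 in wild type.

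Across all summits inside promoter windows, a match within 50 bases was found at 25 of 63 strongest summits of members in DelCBS7-10 (39.7%, 27.6 to 52.8%), 22 of 61 in InsCBS5-10 (36.1%, 24.2 to 49.4%) and 25 of 76 in wild type (32.9%, 22.5 to 44.6%). For the second summits it was found at 8 of 30 in DelCBS7-10 (26.7%, 12.3 to 45.9%), 8 of 39 in InsCBS5-10 (20.5%, 9.30 to 36.5%) and 15 of 56 in wild type (26.8%, 15.8 to 40.3%). Single-summit intervals had one at 38.9% of 844 summits in DelCBS7-10, 40.0% of 725 in InsCBS5-10 and 40.9% of 1219 in wild type, the last being the set on which the patterns were picked. The mutant shares were not independent of that choice. Of all single-summit intervals, 84.8% in DelCBS7-10 and 86.3% in InsCBS5-10 had a call in wild type. A wild-type interval of 1 summit lay at 73.6% of all DelCBS7-10 members and 78.3% of all InsCBS5-10 members. Of the 26766 windows without a CTCF interval, 6.01% had a match within 50 bases of their middle, and 17.7% of all 29074 windows had one anywhere in their 300 bases. The second summits were below the strongest ones in each list, but their 95% intervals overlapped. These shares were corrected neither for the choice of the patterns nor for the cut pieces. A match is a description of these letters, and a window without one says nothing about CTCF.

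Most members had 2 summits: 2793 in DelCBS7-10 (86.2%), 2729 in InsCBS5-10 (86.7%) and 1855 in wild type (85.2%). Those with 3 numbered 349, 339 and 202 in DelCBS7-10, InsCBS5-10 and wild type. The highest number of summits in 1 interval was 16 in DelCBS7-10, 17 in InsCBS5-10 and 49 in wild type. Members were wide, with a median of 627 bp in DelCBS7-10, 641 bp in InsCBS5-10 and 504 bp in wild type, while single-summit intervals had 308, 299 and 297 bp. Just inside the rule, intervals with 2 summits had a median fold enrichment of 5.84 in DelCBS7-10, 6.19 in InsCBS5-10 and 5.17 in wild type, and just outside it, those with 1 summit had 5.24, 5.49 and 5.57. The fold enrichment is the authors' own value at a summit over its local background, and for an interval the value of its strongest summit is used. In both mutants members were thus the stronger kind, and in wild type the weaker.

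The share of members went with strength in a different way in the mutants and in wild type. When the intervals of a list were put into deciles by fold enrichment, members made up 3.24% of the weakest decile and at most 13.2% (the eighth decile) in DelCBS7-10, and 3.13% of the weakest and at most 13.0% (also the eighth) in InsCBS5-10. In wild type they made up 3.31% of the weakest decile, at most 7.60% in the fourth, and 2.95% of the strongest. With width the course was alike in all 3 lists: members made up 0.029% of the narrowest decile of intervals in DelCBS7-10, 0% in InsCBS5-10 and 0.023% in wild type, and 52.6%, 56.0% and 26.9% of the widest. Where only rows with −log10 q of at least 5 were kept, the share of members was 4.98% in DelCBS7-10, 4.92% in InsCBS5-10 and 3.18% in wild type.

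**Figure D1:**
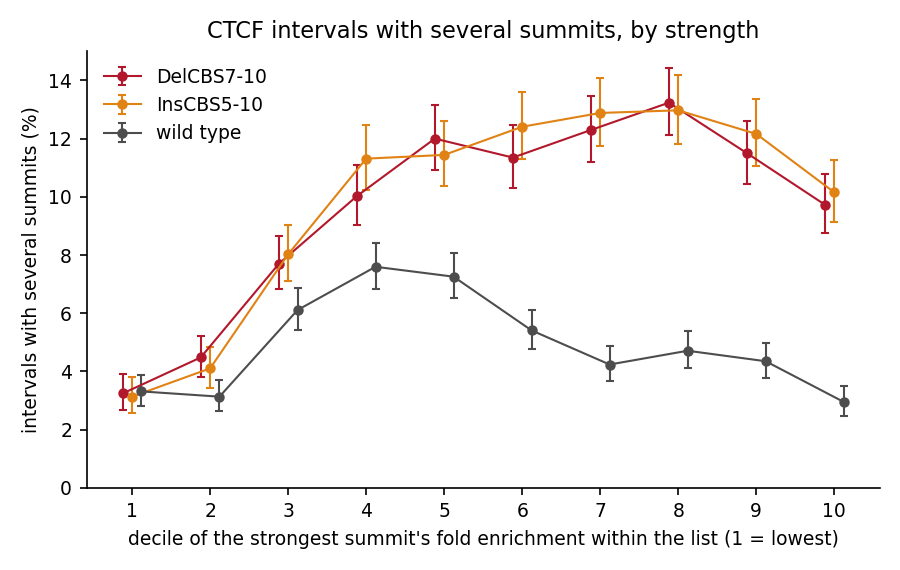
Share of CTCF intervals with several summits (%, y axis) in each decile of fold enrichment within a list (x axis, 1 is the lowest), with exact 95% intervals from counting over regions. Both mutants climb to about the same level (13.2% in DelCBS7-10 and 13.0% in InsCBS5-10 in the eighth decile), and wild type is highest in the fourth decile at 7.60%.

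Neighbouring summits lay a median of 262 bp apart in DelCBS7-10 (95% interval 257 to 267, 3889 distances), 265 bp in InsCBS5-10 (261 to 270, 3767 distances) and 205 bp in wild type (200 to 210, 2882 distances). The quartiles of the distances ran from 192 to 347 bp in DelCBS7-10, from 195 to 353 bp in InsCBS5-10 and from 149 to 293 bp in wild type. Distances under 150 bp made up 9.77% in DelCBS7-10, 9.37% in InsCBS5-10 and 25.1% in wild type. The mutants were thus alike, and the wild-type list held the closer pairs. Per the labels, chromatin was sheared to fragments of 300 to 500 bp on average, which is longer than most of these distances. RAD21 intervals with several summits had a median distance of 260 bp in InsCBS5-10, near that of CTCF in the same genotype. In all 3 lists the stronger members had wider pairs: members with 2 summits had a median of 209 bp in the weakest 3 deciles and 299 bp in the strongest 3 in DelCBS7-10, 203 and 317 bp in InsCBS5-10, and 168 and 266 bp in wild type.

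**Figure D2:**
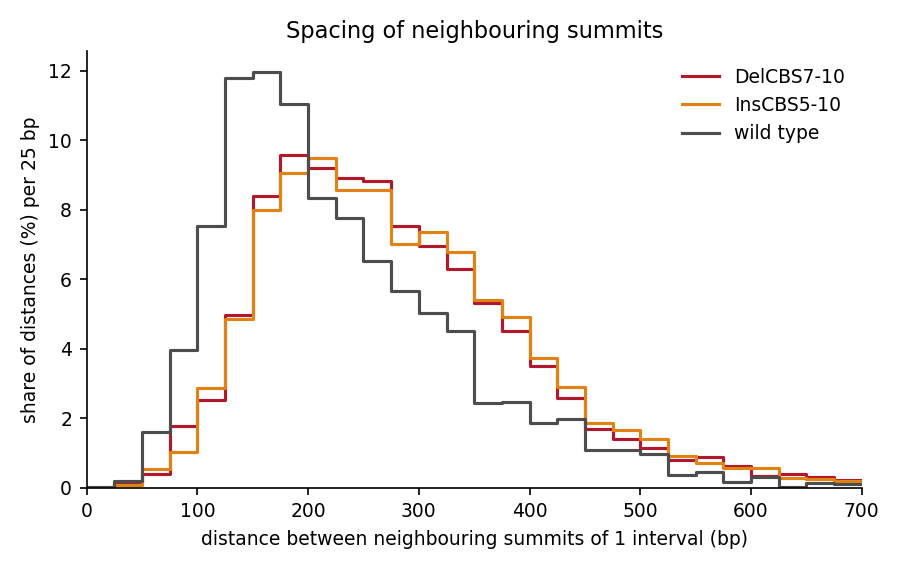
Distances between neighbouring summits of 1 interval (x axis, bp, in steps of 25 bp up to 700 bp) as a share of all distances in a list (y axis, %). The 2 mutant curves lie on each other with medians of 262 bp in DelCBS7-10 and 265 bp in InsCBS5-10, and the wild-type curve is shifted to shorter distances with a median of 205 bp.

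Within a member 1 summit usually led. The second summit reached a median of 67.9% of the strongest in DelCBS7-10 (66.6 to 68.8%), 62.4% in InsCBS5-10 (61.3 to 63.4%) and 78.6% in wild type (77.2 to 80.2%). It was within 10% of the strongest in 522 members of DelCBS7-10 (16.1%), 407 of InsCBS5-10 (12.9%) and 591 of wild type (27.1%). In the strongest 3 deciles it reached 47.6% in DelCBS7-10, 43.9% in InsCBS5-10 and 41.6% in wild type. In the weakest 3 deciles it reached 88.6%, 87.7% and 90.1%. A second summit had to be called itself, which sets a floor under this ratio in weak members. The strongest fold enrichment there was at most 4.28 in DelCBS7-10, 4.41 in InsCBS5-10 and 3.83 in wild type. Over all members, second summits had a lower quartile of 3.15, 3.14 and 2.90. Part of the fall with strength was thus built in, and evenness apart from this floor was not tested. Where 2 summits differed, the one at the higher coordinate was the stronger in 1540 of 2782 members in DelCBS7-10 (55.4%, 53.5 to 57.2%), 1450 of 2719 in InsCBS5-10 (53.3%, 51.4 to 55.2%) and 1041 of 1843 in wild type (56.5%, 54.2 to 58.8%). The second summit had a −log10 q of at least 5 in 37.6% of members in DelCBS7-10, 36.7% in InsCBS5-10 and 46.6% in wild type.

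Weak members were found in the other CTCF lists more often than single-summit intervals of the same strength, and among strong ones the difference was small. Single-summit intervals were weighted here to the members' deciles of fold enrichment, and a call was an overlap of at least 1 bp. Of the DelCBS7-10 members, 94.1% had a call in InsCBS5-10 (93.2 to 94.9%), against 84.3% of single-summit intervals of the same deciles and 77.7% of all intervals. They had a call in wild type in 95.6%, against 91.4% of single-summit intervals and 85.8% of all. Of the InsCBS5-10 members, 97.4% had a call in DelCBS7-10, against 89.3% of single-summit intervals and 82.7% of all, and 98.5% had one in wild type, against 93.5% and 87.5%. Of the wild-type members, 74.5% had a call in DelCBS7-10, against 65.5% of single-summit intervals and 65.8% of all, and 71.5% had one in InsCBS5-10, against 62.1% and 63.0%. In the weakest decile 83.6% of DelCBS7-10 members had a call in InsCBS5-10, against 30.4% of single-summit intervals, and in the strongest decile 99.4%, against 99.5%. The DelCBS7-10 members had the higher share of calls in wild type in 6 of 10 deciles, with 81.8% against 44.5% in the weakest, and the lower share in the strongest 4, with 97.6% (95.7 to 98.8%) against 99.5% in the eighth and 98.2% against 99.8% in the tenth. Members offer more bases to overlap: with deciles of width used beside those of fold enrichment, the excess of DelCBS7-10 members over single-summit intervals was 2.00 percentage points in InsCBS5-10, against 9.73 by fold enrichment alone, and 0.39 points in wild type, against 4.22. For InsCBS5-10 members it was 1.75 points in DelCBS7-10, against 8.10, and 1.77 in wild type, against 5.05. Wild-type members kept more of it, with 6.26 points in DelCBS7-10, against 9.01, and 3.95 in InsCBS5-10, against 9.41. With that matching and a window of 100 bp to each side of the strongest summit, the excess of DelCBS7-10 members in wild type was −0.43 points.

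A call elsewhere was mostly a call with 1 summit. DelCBS7-10 members overlapped a member of InsCBS5-10 in 34.6% (33.0 to 36.3%), against 9.37% of all DelCBS7-10 intervals, and a wild-type member in 18.4%, against 4.96% of all. InsCBS5-10 members overlapped a DelCBS7-10 member in 35.7% (34.0 to 37.4%), against 10.0% of all InsCBS5-10 intervals, and a wild-type member in 17.6%, against 5.09%. Wild-type members overlapped a DelCBS7-10 member in 27.1% (25.3 to 29.1%), against 7.28% of all wild-type intervals, and an InsCBS5-10 member in 25.2%, against 7.20%. The site carried exactly 1 summit in the other list for 55.8% of DelCBS7-10 members in InsCBS5-10 and 73.6% in wild type, for 59.3% of InsCBS5-10 members in DelCBS7-10 and 78.3% in wild type, and for 45.5% of wild-type members in DelCBS7-10 and 44.2% in InsCBS5-10. The lists thus repeated the position of most members and the division into several summits for a minority.

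Among the 24914 sites with exactly 1 interval in each list, 2705 had several summits in DelCBS7-10 (10.9%), 2783 in InsCBS5-10 (11.2%) and 1254 in wild type (5.03%). Only 316 had them in all 3, and 643 in both mutants without wild type. Of the 316, 124 had both leading wild-type summits matched within 50 bp in both mutants. In these 124 the leading pair lay a median of 343 bp apart, and 78.2% had RAD21 in InsCBS5-10 (69.9 to 85.1%), against 70.9% of all 316, a value inside that interval. The leading pair of the sites not matched in this way lay a median of 285 bp apart. Where 1 interval of a list overlapped 1 of another and both had 2 summits, the distance between the summits differed by a median of 62 bp between DelCBS7-10 and InsCBS5-10 (683 sites), 48 bp between DelCBS7-10 and wild type (360 sites) and 43 bp between InsCBS5-10 and wild type (357 sites).

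Over all members, the strongest summit was found in another list more often than the second. A summit within 50 bp of the strongest DelCBS7-10 summit was listed in InsCBS5-10 for 72.6% of members and in wild type for 76.0%, and within 50 bp of the second for 22.4% and 18.9%. In InsCBS5-10 members the strongest summit was found in DelCBS7-10 for 77.6% and in wild type for 81.9%, and the second for 21.1% and 17.5%. In wild-type members the strongest was found in DelCBS7-10 for 49.8% and in InsCBS5-10 for 49.3%, and the second for 23.9% and 23.2%. Single-summit intervals of the same deciles had their summit found in 71.3% for DelCBS7-10 in InsCBS5-10 and 79.4% in wild type, in 75.7% for InsCBS5-10 in DelCBS7-10 and 83.0% in wild type, and in 54.1% for wild type in DelCBS7-10 and 52.4% in InsCBS5-10. The members' strongest summit was thus above the single summits for DelCBS7-10 and InsCBS5-10 in each other, and below them in the other 4 pairings. Second summits were weaker than the strongest, with a median fold enrichment of 3.62 against 5.81 in DelCBS7-10. It was 3.58 against 6.15 in InsCBS5-10 and 3.45 against 5.09 in wild type. The single summits were matched to the strongest summit only, so second summits were not compared at equal strength.

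How often a summit was found also went with how even the pair was. Pairs were more even in weak members, and the shares here were not matched for strength. Where the second summit reached at least 80% of the strongest, it was found for 35.0% of DelCBS7-10 members in InsCBS5-10 and 36.4% of InsCBS5-10 members in DelCBS7-10, against 13.5% and 10.98% where it stayed under 50%. In wild-type members the difference was smaller, with 24.4% against 20.5% in DelCBS7-10 and 24.3% against 19.4% in InsCBS5-10. In the 1055 wild-type members with a second summit of at least 80%, the strongest was found for only 31.0% in DelCBS7-10 and 28.9% in InsCBS5-10, not far above the second.

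**Figure D3:**
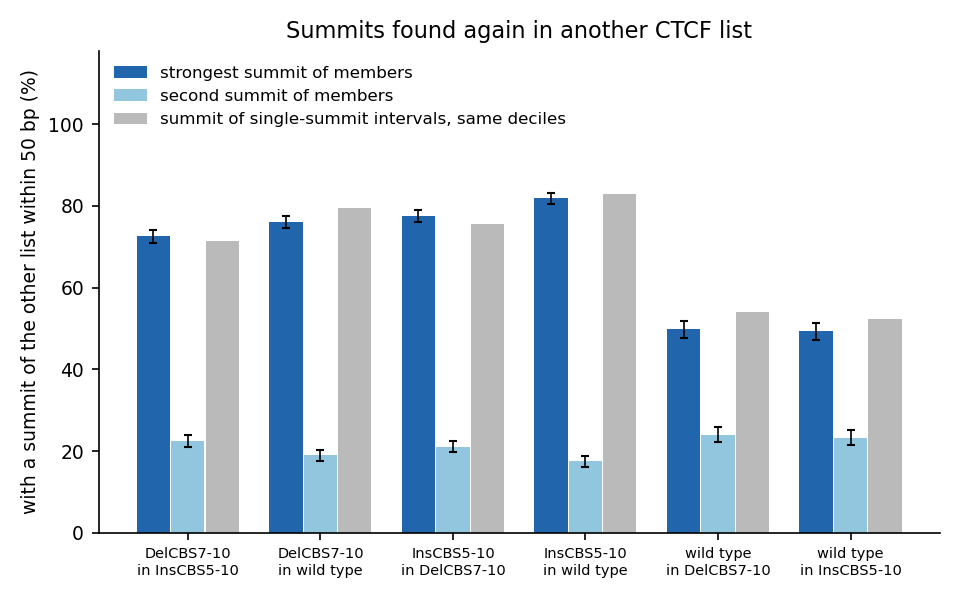
Share of summits with a summit of another CTCF list within 50 bp (%, y axis) for each list in each other list (x axis), with the members' strongest summit in dark blue, their second summit in light blue and single-summit intervals of the same deciles of fold enrichment in grey. Bars with an error bar carry exact 95% intervals from counting. Second summits lie between 17.5% and 23.9% throughout, and the grey bars are matched to the strongest summit only.

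RAD21 was called at 1815 of 3146 members in InsCBS5-10 (57.7%, 55.9 to 59.4%), against 55.1% of single-summit intervals of the same deciles and 48.8% of all intervals. The difference of 2.64 percentage points (0.89 to 4.37, counting error of the members only) was 0.20 points with width matched as well, −2.37 points with deciles of −log10 q, and −2.80 points where only RAD21 rows with −log10 q of at least 5 were counted, so its direction depended on these settings. The deciles differed: in the weakest 3, 39.6% of members had RAD21 (35.3 to 44.1%) against 22.3% of single-summit intervals, and in the strongest 3, 73.4% against 73.8%. Weak members were also wider than weak single-summit intervals, with a median of 491 bp against 204 bp in the weakest decile, and the part of width in this was not tested within the deciles.

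**Figure D4:**
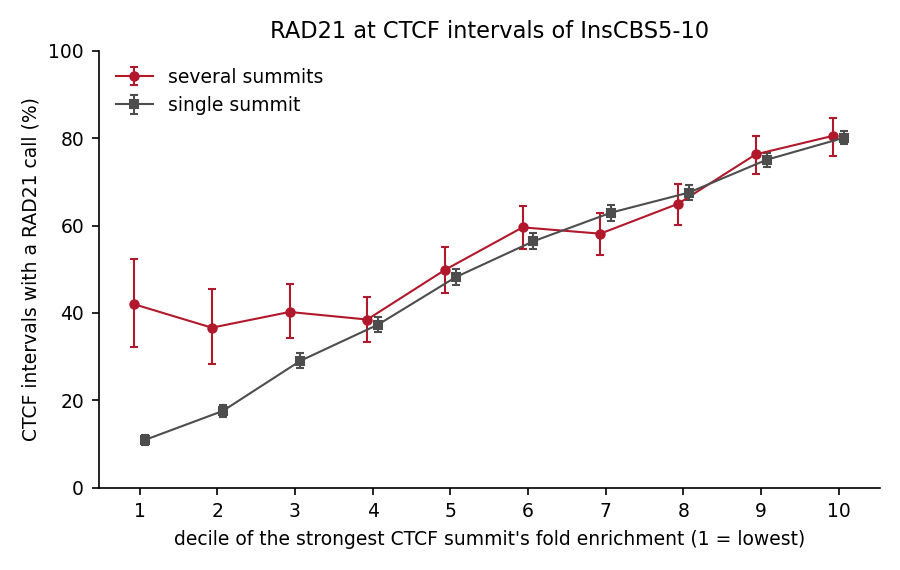
Share of InsCBS5-10 CTCF intervals with a RAD21 call (%, y axis) in each decile of CTCF fold enrichment (x axis, 1 is the lowest), for intervals with several summits (circles) and with a single summit (squares), with exact 95% intervals from counting. In the lowest decile 42.0% of members and 10.97% of single-summit intervals have a call, and from the fourth decile on the curves run together.

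Kinds of members differed in RAD21. Members with 4 or more summits had a call in 61 of 78 (78.2%, 67.4 to 86.8%), against 46.4% of single-summit intervals of their deciles. These members had a median width of 1406 bp, against 299 bp for single-summit intervals, and of the 41 with 5 or more summits 9 lay at the start of chromosome 9 and 12 had a −log10 q of 300 or more. The part of width and of such places in this value was not tested. Members that were also members in both other lists had one in 268 of 368 (72.8%, 68.0 to 77.3%), against 54.7%. Members of InsCBS5-10 and DelCBS7-10 but not wild type had one in 50.7% of 754, against 57.0%. Members with summits at least 400 bp apart had one in 68.0% of 571, against 59.6%, and those with summits under 150 bp apart in 48.2% of 280, against 41.5%. In between, the members were level with the single-summit intervals of their deciles. Of 1051 with summits 150 to 250 bp apart, 50.6% had a call, against 50.6%. Of 1244 with summits 250 to 400 bp apart, 61.1% had one, against 59.8%. None of these kinds of members was matched for width, and the part of width was not tested.

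The RAD21 summit mostly lay at the strongest CTCF summit. In the 1397 members with 2 CTCF summits and 1 RAD21 summit, the RAD21 summit was a median of 26 bp from the strongest CTCF summit and 271 bp from the second, and it was nearer the strongest in 1244 (89.0%, 87.3 to 90.6%). It was nearer the strongest in 98.4% of the 560 where the second summit was under 50% of the strongest, and in 62.5% of the 256 where it was at least 80%. It lay between both summits in 53.1% and beyond the second in 4.51%. For single-summit intervals the median distance was 21 bp. Several RAD21 summits were called at 250 of the 1815 members with RAD21 (13.8%, 12.2 to 15.4%), against 393 of 13752 single-summit intervals (2.86%, 2.59 to 3.15%). The median RAD21 fold enrichment was 5.58 at members and 6.64 at single-summit intervals. The shares with several RAD21 summits and these fold enrichments were matched neither for strength nor for width. InsCBS5-10 members had a median width of 641 bp, against 299 bp for single-summit intervals.

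**Figure D5:**
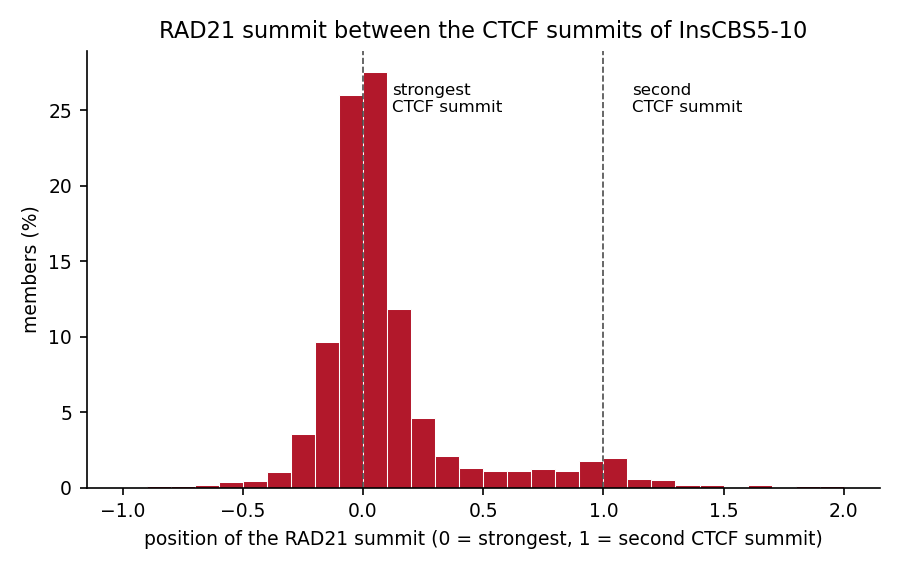
Position of the RAD21 summit in 1397 InsCBS5-10 members with 2 CTCF summits and 1 RAD21 summit, on a scale where 0 is the strongest and 1 the second CTCF summit (x axis), as a share of these members (%, y axis). The bars pile up at 0, and only a low second mound stands at 1; 89.0% of RAD21 summits are nearer the strongest.

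Sites were named by the nearest protein-coding gene within 5 kb of an end, or by the gene that held them. Of sites with several summits in all 3 lists, the strongest in wild type was at Vmn2r29 (chr7:7277927-7278699), with summits of 13.0 and 9.08 in DelCBS7-10, of 10.1, 14.4 and 6.25 in InsCBS5-10, and of 3.64, 22.4 and 9.74 in wild type. Vomeronasal receptors form a family with near-identical copies, and the sources used here do not give how reads that fit several copies were treated. Inside Snx29, a sorting nexin gene, the same 3 summits stood in each list, with 7.17, 11.1 and 12.2 in DelCBS7-10, 7.01, 9.52 and 11.9 in InsCBS5-10 and 7.41, 17.4 and 20.5 in wild type, at 191 and 225 bp from each other in DelCBS7-10 and 158 and 182 bp in wild type. The order of the 3 summits was the same in the 3 lists, and RAD21 was called there with a fold enrichment of 9.87.

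Inside Smo, the transducer of Hedgehog signals, DelCBS7-10 had summits of 13.0 and 6.18 at 516 bp from each other, InsCBS5-10 had 3 summits of 10.4, 13.6 and 6.39, and wild type had 2 of 13.2 and 15.9 at 260 bp. The RAD21 fold enrichment there was 13.8 in InsCBS5-10. At E030030I06Rik, DelCBS7-10 had 3 summits of 12.2, 10.8 and 15.8, InsCBS5-10 had 2 of 9.81 and 17.1, and wild type had 3 of 11.6, 13.0 and 15.7, with a RAD21 fold enrichment of 15.9, the highest at an InsCBS5-10 member in or near a gene. Bpi, which encodes an antibacterial protein, had 2 summits in each list: 3.62 and 8.39 in DelCBS7-10, 9.23 and 3.02 in InsCBS5-10, and 15.2 and 4.00 in wild type. Its weaker summit lay on the left in DelCBS7-10 and on the right in the others, and it had no RAD21 call. The other sites of this kind were at Gm2977, Kiz and Dtwd2.

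The second summit was highest in wild type at Snx29 and then at Ranbp3l and at Peak1, a pseudokinase gene. The Peak1 interval (chr9:56223613-56223951) had summits of 13.3 and 15.0 only 122 bp apart in wild type, and 1 summit of 16.5 in DelCBS7-10 and of 17.01 in InsCBS5-10. RAD21 had a fold enrichment of 22.6 there. Among InsCBS5-10 members without RAD21, the strongest was in Gdf15, a stress-induced cytokine gene, with summits of 14.3 and 2.67, and the next in Smad6, an inhibitor of BMP signals, with summits of 12.7 and 3.15. Both had 1 summit in DelCBS7-10 and in wild type. At Spi1, a transcription factor gene of blood cells, InsCBS5-10 had summits of 2.69 and 11.6 at 476 bp from each other and a RAD21 fold enrichment of 13.7. Def6, Wdr66 and Mcm3ap also had strong members without RAD21, with fold enrichments of 10.7 to 12.4 in InsCBS5-10, and Tmem267 and Gm10479 had members with RAD21 of 14.1 and 13.7.

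Members called in 1 CTCF list alone were few in the mutants and more in wild type. The wild-type list was also the longest, with 44362 intervals, against 33915 in DelCBS7-10 and 31905 in InsCBS5-10. The shares that follow were not matched for width, and members were wider than single-summit intervals. The share over all intervals is not given here. Members called in 1 list alone numbered 87 in DelCBS7-10 (2.68%, 2.16 to 3.30%), against 6.78% of single-summit intervals of the same deciles. In InsCBS5-10 there were 12 (0.381%), against 4.74%, and in wild type 415 (19.1%, 17.4 to 20.8%), against 28.4%. The strongest in DelCBS7-10 were in Nrn1, a neuritin gene (chr13:36733933-36734999, 3 summits of 9.41, 3.93 and 3.95), in Hoxd13, the most posterior gene of its cluster (chr2:74668285-74669404, 3.58 and 7.19), in Lmx1b, a LIM homeobox gene, and in Flt1, a VEGF receptor gene. None of these 4 had RAD21 in InsCBS5-10, where by the way they were chosen they had no CTCF interval either. RAD21 was called at 54.6% of all DelCBS7-10 members and 46.0% of all DelCBS7-10 intervals. In wild type the strongest were in Atrnl1 (3.20 and 19.1), beside Hoxd13 at another place (chr2:74672947-74673372, 13.2 and 3.56), in Jarid2, a partner of the Polycomb repressive complex, and in Akap12. Of these, Atrnl1, Hoxd13 and Akap12 had a RAD21 call in InsCBS5-10, although that genotype's CTCF list had none there. The RAD21 share was 43.5% of all wild-type members and 38.9% of all wild-type intervals. In InsCBS5-10 the strongest, at 4930503E14Rik, Alox5, Rims4 and Selenon, had fold enrichments of only 3.24 to 4.67.

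The Hox clusters outside chromosome 11 had most of their members in DelCBS7-10. In DelCBS7-10, 14 of 31 genes of the HoxA, HoxC and HoxD lists (Evx1 and Evx2 included) had a member within 5 kb of an end, against 6.66% of all 19056 protein-coding genes. In InsCBS5-10 it was 4 of 31, against 6.75%, and in wild type 6 of 31, against 3.84%. Neighbouring Hox genes share intervals, so these are few places: 8 members in DelCBS7-10, 3 in InsCBS5-10 and 4 in wild type. RAD21 of InsCBS5-10 was called at 0 of the 8, 2 of the 3 and 3 of the 4. It was called at 54.6% of all DelCBS7-10 members and 46.0% of all DelCBS7-10 intervals, at 57.7% of InsCBS5-10 members and 48.8% of intervals, and at 43.5% of wild-type members and 38.9% of intervals. These values come from 1 library each, and RAD21 of DelCBS7-10 was not analysed here. Some of the 8 had no CTCF interval in InsCBS5-10, among them those at Hoxd13, at Hoxd10 to Hoxd12 and next to Hoxc9 and Hoxc10. Of all DelCBS7-10 members, 94.1% had a CTCF call in InsCBS5-10, and the 8 were not matched to them in this.

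In HoxA, the member nearest to an end of Hoxa3, with Hoxa6 and Hoxa7 also within 5 kb (chr6:52211324-52211997), had 3 summits of 3.63, 5.54 and 5.34 in DelCBS7-10, where InsCBS5-10 and wild type had 1 summit of 7.37 and 11.6. The member beside Hoxa10 and Hoxa11 (chr6:52240218-52240770) had 3.87 and 8.57 in DelCBS7-10 and 1 summit of 8.00 in InsCBS5-10 and 11.9 in wild type. The Hoxa5 site shown by its sequence had 1 summit of 4.80 in DelCBS7-10, its pair in InsCBS5-10 and 1 summit of 14.5 in wild type. At Hoxc11 the DelCBS7-10 interval (chr15:102954528-102956433) had 5 summits of 4.89 to 6.71 and InsCBS5-10 had 4 of 3.83 to 5.76, and wild type had no interval at that place. The member next to Hoxc9 and Hoxc10 (5.80 and 6.56) was called in DelCBS7-10 only. At Hoxd10 to Hoxd12 DelCBS7-10 had 3 summits of 5.07, 4.89 and 6.14 in an interval that neither other list held. At Hoxd3 InsCBS5-10 had summits of 8.85 and 5.69, with 1 summit of 5.20 in DelCBS7-10 and 13.4 in wild type. Evx2, next to HoxD, had a member in DelCBS7-10 (4.99, 3.65 and 3.46) and at the same place in wild type (5.22 and 5.06).

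Genes of the somite and paraxial mesoderm list had a member in 5 of 16 in DelCBS7-10, 4 of 16 in InsCBS5-10 and 2 of 16 in wild type, against 6.66%, 6.75% and 3.84% of all protein-coding genes. Each count of list genes that follows is to be read against these shares, and lists of 10 to 20 genes make it coarse. Lfng, which modifies Notch receptors in the segmentation clock, had 2 summits in each list: 5.79 and 8.28 in DelCBS7-10, 5.92 and 7.60 in InsCBS5-10, and 6.25 and 11.3 in wild type. Dll3, a Notch ligand of the somite, had 8.40 and 6.06 in DelCBS7-10, 5.23, 5.20 and 6.19 in InsCBS5-10, and 6.79 and 7.28 in wild type. Both had RAD21, with fold enrichments of 10.2 at Lfng and 7.09 at Dll3. Pax7 and Tbx18, transcription factor genes of the somite, had members in both mutants and none in wild type, and Pax9 in DelCBS7-10. The posterior growth zone list had 1, 2 and 1 of 15 genes in DelCBS7-10, InsCBS5-10 and wild type, among them Fgf8, a signal of the tail bud, in InsCBS5-10 (9.44 and 3.34), and these counts are too small to set apart from the share of all genes.

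The neural tube list had 3 of 12 genes in DelCBS7-10, 1 in InsCBS5-10 and 2 in wild type, and the endoderm and heart list 3 of 10, 0 and 1. The counts of 0 to 2 are too small to set apart from the share of all genes, and the counts of 3 were not tested against it. Sox17, an endoderm transcription factor gene, had 3 summits of 4.40, 3.22 and 6.46 in DelCBS7-10. Of the pluripotency list 1 of 10 genes had a member in either mutant (Pou5f1) and 0 in wild type, and of the CTCF and cohesin list 0, 0 and 1 of 13 (Pds5a in wild type). Clustered protocadherin genes encode cell-surface proteins and have a CTCF site at their promoters. They had a member in 12 of 57 in DelCBS7-10, 11 of 57 in InsCBS5-10 and 4 of 57 in wild type. The shares of all protein-coding genes were 6.66%, 6.75% and 3.84%. Neighbouring protocadherin genes share intervals, so these are 10 members in DelCBS7-10, 8 in InsCBS5-10 and 2 in wild type. At Pcdha7 (chr18:36974194-36975315) the summits of DelCBS7-10 were 7.64 and 3.19 at 885 bp from each other, and those of InsCBS5-10 were 5.74 and 4.00. Of 1375 olfactory and vomeronasal receptor genes, 6 had a member in DelCBS7-10, 4 in InsCBS5-10 and 8 in wild type. These counts are far below those shares of all protein-coding genes. How many genes of this or the other lists had any CTCF interval within 5 kb is not given here.

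Protein-coding imprinted genes had a member in 1, 2 and 1 of 20 in DelCBS7-10, InsCBS5-10 and wild type, near the 6.66%, 6.75% and 3.84% of all protein-coding genes. The imprinted non-coding genes were looked at as well, with no count of their own. Peg13 had 2 summits in each list: 6.36 and 4.42 in DelCBS7-10, 3.73 and 5.61 in InsCBS5-10 and 4.11 and 4.60 in wild type. Meg3 had 5.19 and 4.21 in InsCBS5-10 and 4.41 and 5.28 in wild type. A member near H19 (chr7:142580679-142580999) had 4.26 and 2.71 in DelCBS7-10.

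Members lay near gene ends or inside genes more often than single-summit intervals by a few percentage points at most. The strongest summit lay within 1 kb of an end of a protein-coding gene in 10.0% of members in DelCBS7-10 (9.0 to 11.1%), against 9.74% of single-summit intervals of the same deciles and 9.78% of all intervals. In InsCBS5-10 it was 9.82%, against 9.20% and 8.95%, and in wild type 10.8% (9.52 to 12.2%), against 8.96% and 9.24%. Within 5 kb the shares were 31.0% against 27.8% in DelCBS7-10, 31.7% against 27.5% in InsCBS5-10 and 27.5% against 25.97% in wild type. By counting error of the members only, this excess ran from 1.58 to 4.79, 2.63 to 5.91 and −0.37 to 3.43 points. Members lay inside a gene in 52.4% in DelCBS7-10 against 48.3% of single-summit intervals, in 52.1% against 47.7% in InsCBS5-10 and in 48.5% against 48.4% in wild type. This excess ran from 2.37 to 5.84, 2.68 to 6.21 and −2.07 to 2.17 points in the same order.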

How the data were processed

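CTCF was measured in 3 genotypes and RAD21 in 1, with 1 library per group, grouped by their titles. The deposited files are MACS2 narrowPeak lists, 1 per library. MACS2 2.2.7.1, cutadapt 4.1 and the build mm10 are named in the submitters' processing notes. The sources used here do not give the aligner, control, mapping filter or peak caller options. The authors deposited, for each summit, a score of 10 times −log10 q, a fold enrichment (a ratio to the local background), −log10 p, −log10 q and the summit's offset, where the smallest −log10 q was 1.30. These are the authors' values, used only within a list. Read depth is unknown from these files, and a call that is missing was not called rather than shown to be absent.

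Rows with equal chromosome, start and end were joined to 1 interval of several summits. Chromosomes X, Y and 11 were left out. Single-summit intervals were weighted to the members' deciles of fold enrichment of the strongest summit. Overlap was at least 1 bp, and summits within 50 bp were matched. Genes and promoter windows came from RefSeq (GRCm38.p6, the same build). With 1 library per group no test was possible: shares have exact Clopper-Pearson 95% intervals, and medians have order-statistic intervals. The measures were tested on simulated data. Python 3.11.15, pandas 2.3.3 and scipy 1.17.1 were used.

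Named sites were the 8 strongest in all 3 lists, the 6 with most summits, the 6 highest second summits in wild type, the 4 strongest of each list alone, the 5 strongest without RAD21 and the 5 with the highest RAD21, and the 3 widest pairs of each list, plus the genes of 12 lists. The members and lists were chosen with earlier results of these data known. Alternatives were stricter q, other overlap rules, other classes, other match distances and gene distances. One further peak list without a sample (1 list) was not analysed here. A motif search at all members was not made, as only promoter sequence was at hand.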

Additional observations from a re-analysis of the deposited data

How the results depend on the processing

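With rows of −log10 q of at least 5, the share of members was 4.98, 4.92 and 3.18% in DelCBS7-10, InsCBS5-10 and wild type, and the median spacing 250, 252 and 214 bp. With members of 2 summits only, the wild-type spacing was 195 bp and the second summit reached 66.5% in DelCBS7-10 and 76.1% in wild type. The RAD21 excess was 0.70 points with a window of 100 bp, −2.37 with deciles of −log10 q, 0.20 with fold and width classes, −2.80 with strict RAD21 rows, and −1.17 with window and width together; the cause was not tested. Excess calls elsewhere, in the order DelCBS7-10 in InsCBS5-10 and in wild type, InsCBS5-10 in DelCBS7-10 and in wild type, wild type in DelCBS7-10 and in InsCBS5-10, were 8.65, 2.54, 7.45, 3.89, 6.43 and 6.67 points with the window, 4.46, 0.58, 3.97, 1.87, 4.63 and 5.23 with deciles of −log10 q, 2.00, 0.39, 1.75, 1.77, 6.26 and 3.95 with fold and width classes, and 1.60, −0.43, 1.97, 1.03, 4.45 and 3.02 with window and width together. With strict rows in both lists, members were members elsewhere in 26.4% (DelCBS7-10 in wild type), 25.5% (InsCBS5-10 in wild type), 31.0% (wild type in DelCBS7-10) and 28.4% (wild type in InsCBS5-10). In the same order, second summits were found in 13.2, 10.98, 12.6, 11.3, 15.0 and 15.0% within 25 bp and in 33.8, 26.1, 32.2, 23.9, 35.2 and 32.4% within 100 bp. Within 5 kb of a gene end the excess was 3.17 points in DelCBS7-10 and 4.25 in InsCBS5-10, and within 1 kb with width classes it was 2.26 points in InsCBS5-10. The other 50 of 107 alternatives moved by less than the counting interval. Leaving out intervals with −log10 q of 300 or more, and the window and width classes together, were chosen after seeing the data. No paired analysis was possible because each group had 1 library and no result came from a test. Unknown read depth limits every comparison between lists.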

Other observations

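Intervals with 5 or more summits numbered 34 in DelCBS7-10, 41 in InsCBS5-10 and 69 in wild type. A −log10 q of at least 300 was listed for 10, 12 and 10 of these, and the start of chromosome 9 held 8, 9 and 8 of them. The widest wild-type member (chr9:3011548-3022716, 11169 bp) had 49 summits and lay 316703 bp from the nearest protein-coding gene end, that of Alkbh8. Outside such places, the interval next to Trappc6b, a gene of a vesicle-tethering complex, had the most summits near a gene: 11 in DelCBS7-10, 16 in InsCBS5-10 and 13 in wild type, with a strongest fold enrichment of 4.20, 4.87 and 4.96. Akap9, which encodes a scaffold of the Golgi and centrosome, had 6 summits in DelCBS7-10, 6 in InsCBS5-10 and 8 in wild type.

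The widest pairs near genes were at Zbtb46 (895 bp), Pcdha7 (885 bp) and Zfp36l2 (822 bp) in DelCBS7-10, at Adamtsl5 (873 bp), Vamp1 (834 bp) and Ak1 (824 bp) in InsCBS5-10, and at Btbd11 (849 bp), Cenpo (846 bp) and Tatdn1 (833 bp) in wild type. Of these 9, the wild-type pairs at Btbd11 and Tatdn1 had no call in InsCBS5-10.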
